A study of Mus musculus with 6 samples.

Results

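The genes described here encode receptors of the interleukins and of the tumour necrosis factor (TNF) superfamily. They were taken by symbol, as genes named Il, then digits, then r, or starting with Tnfrsf, with Il3ra, Il5ra, Il7r and Il1rl1 left out. This choice was made with earlier results of these data known. The rule found 50 of the 19436 genes in the deposited table, 31 with interleukin symbols and 19 with Tnfrsf symbols, under 49 symbols because Tnfrsf22 stood in 2 rows. It also took in Il1rn, which is a secreted antagonist and not a receptor. RNA came from fetal livers of C57BL/6 mouse embryos at E14.5, in mid gestation. Erythroid precursors with medium CD71 (the transferrin receptor) and without Ter119, a surface marker of later red cells, were sorted as the gate R1. There were 3 wild type (-77+/+) and 3 -77-/- libraries, and the latter lack both copies of an enhancer upstream of Gata2, a transcription factor gene of blood stem and progenitor cells. The comparison asks how expression in the sorted cells differs without that enhancer. The labels name no driver that would limit the deletion to 1 cell type. Replicate numbers follow sample accession order and pair nothing, and the labels do not say that each library came from its own embryo, so that p-values measure only the spread between these libraries.

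Interleukin receptors are mostly built of a chain that binds the ligand and a signalling chain that several receptors share. The shared chains include Il2rg (the common gamma chain), Il6st (gp130), Il10rb and Il1rap. Most of these receptors signal through JAK kinases and STAT transcription factors, whereas those for IL-1, IL-18 and IL-17 recruit adaptor proteins of the Toll and NF-kappaB pathway. TNF receptors carry either a death domain, which can start cell death, or motifs that bind TRAF adaptors, and a few lack a working signalling tail and act as decoys. In blood formation the receptors for IL-1, IL-4, IL-6, IL-10 and TNF are best known on myeloid and lymphoid cells.

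Values are normalized reads per gene, listed in the order of replicates 1, 2 and 3. They are not divided by gene length, so levels are compared within a gene and not between genes. Total reads ranged from 16516338 to 20468899 per library, and 3 reads corresponded to a value of 2.56 to 3.42, a floor that covers counting error only. Gata2 itself read 128, 87.8 and 61.5 in wild type and 74.2, 26.2 and 34.2 in -77-/- libraries, which overlapped, and it did not pass the test (limma adjusted p = 0.183). Xist read 41877 in wild type replicate 2 and 28.5 to 63.2 in the other 5 libraries. The labelled cell type was checked against markers. Over all 15821 genes tested, 16.9% were higher and 15.2% lower in -77-/-. Of 14 erythroid markers, 13 were lower in -77-/-. Their summed value ran from 50813 to 54733 in wild type and from 3300 to 8089 in -77-/- libraries. Hba-a1 did not pass and was at 0 in -77-/- replicate 3. Tfrc, the gene of CD71, had means of 14576 in wild type and 3307 in -77-/-, and made up most of the -77-/- sums. Of 16 monocyte and macrophage markers, 15 were higher, all but Cd14, with sums of 1987 to 3389 in wild type and 33775 to 46021.5 in -77-/-. Among the wild type libraries, Cd14 was at 0 in replicates 2 and 3 and Fcgr1 in replicate 3. Neutrophil markers rose in 5 and fell in 4 of 11 cases (sums 14279.7 to 24682 and 44852 to 48830.4). Mpo alone, with means of 11805 in wild type and 38959 in -77-/-, made up most of these neutrophil sums. Prtn3, Ctsg, Mmp8 and Csf3r also rose, whereas S100a8, S100a9, Camp and Ngp fell, so the sums do not stand for the list. Dendritic cell markers rose in 4 of 7 (sums 259 to 512 and 2665 to 2757.5). These marker sums differ between the same libraries as the receptor genes that follow, and their part in the receptor results was not tested. In sorted bulk RNA, a change in the share of cells of a type and a change in RNA per cell cannot be told apart.

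Of the 50 receptor genes, 22 rose in -77-/-, 1 fell, 18 did not pass the test and 9 were too low to test. Across all 15821 genes tested, 32.2% differed in either direction, 16.9% were higher and 15.2% lower. The 41 receptor genes tested had a median log2 fold change of 1.79, against 0.10 over all genes tested. A gene was tested when its mean reached 10 normalized reads in the higher genotype, which 8 of the 41 reached only in -77-/- and 3 only in wild type. Of the genes that rose, Il1r1, Il2rb and Tnfrsf22 reached it only in -77-/-, which favours higher calls. Of the 26 receptor genes with a mean of at least 50 over all 6 libraries, 18 were higher and 1 lower by these calls, against 21.0% higher among all genes with such a mean. A new fit to those genes alone called 19 receptor genes higher and 1 lower. The libraries of the 2 genotypes did not overlap for 27 of the 41, against 46.5% of all genes tested. A call means a Benjamini-Hochberg adjusted p under 0.05 in limma over all genes tested. Each fold change divides -77-/- by wild type, as a difference of log2(value + 1), where the added 1 shrinks the change of low genes. It can still exceed the ratio of the means when a library of the lower genotype is at or near 0, as for Il1rl2, whose -77-/- mean was 8.86 times the wild type mean at a log2 fold change of 3.87. Of the 41 genes, 22 had an adjusted p under 0.05 in the authors' deposited table, among them 21 of the 22 that rose here, all but Il2rb at 0.0844.

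**Figure D1:**
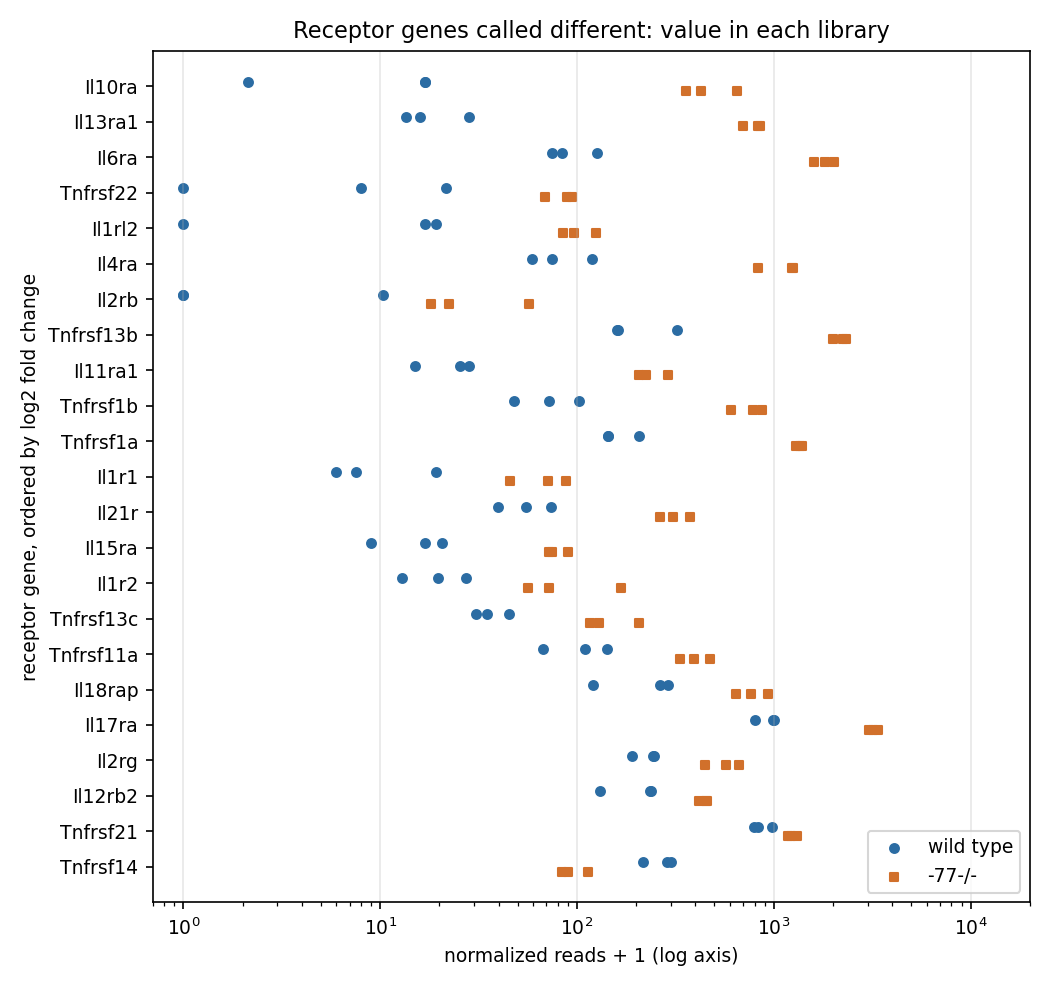
Normalized reads + 1 on a log axis for the 23 receptor genes that differed, with 1 blue circle per wild type library and 1 orange square per -77-/- library. In all 23 genes the 2 genotypes stand apart, and Tnfrsf14 in the bottom line is the 1 gene whose -77-/- libraries lie to the left.

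In all, 5 of the 7 receptor chains that work with the common gamma chain rose, and their median log2 fold change was 2.42. Il4ra, which binds IL-4, read 118, 73.8 and 58.1 in wild type and 835, 1237 and 1252.5 in -77-/- libraries. Its lowest -77-/- library was far above its highest wild type library, and the difference was 3.75 on the log2 scale (SE 0.30, limma adjusted p = 2.0e-07). Il21r, the chain that binds IL-21, rose from 54.4, 38.9 and 72.9 to 308, 373 and 262 (log2 fold change 2.51, SE 0.39, limma adjusted p = 1.4e-04). Il2rg, the common gamma chain itself, rose less, from 242, 244.5 and 189 to 446, 571 and 666 (1.30, SE 0.24, limma adjusted p = 7.0e-04). None of these 3 genes overlapped between genotypes. Il15ra, which presents IL-15 to neighbouring cells, was low in wild type at 19.7, 7.98 and 16.0 and read 71.2, 73.9 and 88.8 in -77-/- libraries (2.42, SE 0.75, limma adjusted p = 0.0221). Il2rb, the chain shared by IL-2 and IL-15, had reads in 1 wild type library only, at 9.38, 0 and 0, and read 55.9, 21.4 and 17.1 in -77-/- libraries (3.71, SE 1.36, limma adjusted p = 0.0492). Its -77-/- libraries were uneven, with replicate 1 far above the other two. Il2ra, the high-affinity IL-2 chain also called CD25, ranged from 58.9 to 125 in wild type and from 55.9 to 102 in -77-/- libraries and did not pass. Il9r, the IL-9 receptor, had means of 6.83 and 20.7 and did not pass either. The Il2rb call ended in 11 of 17 alternative analyses, at an adjusted p of 0.184 with edgeR and 0.102 with DESeq2. Il15ra lost its call without any 1 of the -77-/- libraries (limma adjusted p 0.0533 without replicate 1, 0.0825 without 2 and 0.11 without 3), and the count of the group then fell from 5 to 3.

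Of 9 T and NK cell markers none passed the test, and 5 of them were too low to test. Their summed value was 252 to 510.5 in wild type and 355 to 412 in -77-/- libraries, with Zap70 at 0 in wild type and Cd3e under 10 in every library. The part of such cells in the receptor results was not tested.

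Receptors of the IL-6 and IL-12 family rose in 3 of the 4 cases tested, with a median log2 fold change of 2.31. Il6ra, the chain that binds IL-6, rose from 82.6, 73.8 and 125 in wild type to 1603.5, 1829 and 2015 in -77-/- libraries, a difference of 4.29 on the log2 scale (SE 0.24, limma adjusted p = 6.1e-09). The 3 libraries of each genotype lay close together, and no other receptor gene had a lower adjusted p. Il11ra1, the chain that binds IL-11, rose from 24.4, 14.0 and 27.3 to 289, 225 and 205 (3.43, SE 0.52, limma adjusted p = 1.2e-04). Mouse Il11ra1 has a near-identical copy, Il11ra2, between which the counting could split reads, so its level is uncertain. Il12rb2, a signalling chain of the IL-12 receptor, rose from 129.5, 234.5 and 237 to 460, 453 and 414 (1.19, SE 0.28, limma adjusted p = 0.00422). Its partner Il12rb1 stayed too low to test, at 13.6 in the highest library. Il31ra, the IL-31 receptor, had means of 15.5 and 6.51 and did not pass.

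The promoter of Il6ra is shown because this gene had the lowest adjusted p among the receptor genes. It is the 250 bases before the RefSeq transcription start in GRCm38.p6, minus strand, chr3:89913197-89913446, written 5′ to 3′. Capitals mark TTATCT, the reverse complement of the GATA factor motif AGATAA, which stands at -245 to -240 from the start.
Il6ra: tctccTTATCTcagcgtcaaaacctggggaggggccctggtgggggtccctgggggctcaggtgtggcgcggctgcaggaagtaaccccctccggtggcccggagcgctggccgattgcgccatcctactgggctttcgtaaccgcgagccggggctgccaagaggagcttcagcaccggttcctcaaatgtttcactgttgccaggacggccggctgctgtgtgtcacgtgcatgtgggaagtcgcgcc
The window has a GC content of 65.2%. The match is a description of the letters and not a shown binding site.

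Il13ra1 and Il10ra had the highest fold changes among the receptor genes. Il13ra1, which binds IL-13 and joins Il4ra in the second type of IL-4 receptor, rose from 27.2, 15.0 and 12.5 to 695.5, 852 and 827 (5.43 on the log2 scale, SE 0.41, limma adjusted p = 1.1e-07). Its mean in -77-/- libraries, 791.5 ± 84.0 (SD, n = 3), was 43.4 times the wild type mean of 18.2 ± 7.86. The IL-13 decoy Il13ra2 was too low to test, at 9.72 in the highest library. Il10ra, which binds IL-10, rose from 15.9, 16.0 and 1.14 to 356, 650.4 and 424 (5.76, SE 0.76, limma adjusted p = 3.7e-05). Wild type replicate 3 held a single read of Il10ra, and without that library the log2 fold change was 4.77. Il10rb, the chain that Il10ra shares with other receptors of the family, read 286, 379 and 195 in wild type and 386, 390 and 401 in -77-/- libraries and did not pass (0.50, SE 0.27, limma adjusted p = 0.168). Thus 1 of the 4 IL-10 family receptors tested rose. Il20rb, a chain of the IL-20 receptor, ranged from 1.14 to 28.1 in wild type and 5.08 to 29.2 in -77-/- libraries, and Il28ra, the receptor chain for interferon lambda, from 1.14 to 30.9 and 0 to 7.78. Neither passed, and both overlapped between genotypes.

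Of the 7 genes tested in the IL-1 and IL-18 group, 4 rose, with a median log2 fold change of 1.88. Il18rap, the accessory chain of the IL-18 receptor, rose from 262, 289 and 120 to 643, 765 and 937 (log2 fold change 1.88, SE 0.31, limma adjusted p = 3.3e-04). Il18r1, which binds IL-18, read 22.5, 98.8 and 66.1 in wild type and 87.4, 126 and 95.6 in -77-/- libraries, which overlapped, and did not pass (0.93, SE 0.59, limma adjusted p = 0.248). Il1r1, the signalling IL-1 receptor, rose from 6.57, 4.99 and 18.2 to 70.2, 44.7 and 87.1 (2.79, SE 0.89, limma adjusted p = 0.0251). Il1r2, the IL-1 decoy receptor, rose from 18.8, 12.0 and 26.2 to 167, 71.0 and 55.5 (2.20, SE 0.72, limma adjusted p = 0.0296). Il1rl2, the receptor for IL-36, rose from 15.9, 0 and 18.2 to 95.6, 123.5 and 83.7 (3.87, SE 1.10, limma adjusted p = 0.0132). In these 3 genes every -77-/- library was above every wild type library, though wild type held only 28 to 55 reads of each over its 3 libraries. Il1rap, the accessory chain of IL-1 and IL-36 receptors, read 152, 198 and 98 in wild type and 155, 194 and 170 in -77-/- libraries and did not pass (0.26, SE 0.36, limma adjusted p = 0.607). The antagonist Il1rn had means of 8.53 and 16.7 without passing, and the neuronal relative Il1rapl2 was too low to test, at 14.0 in the highest library. The group's count of 4 fell to 2 without wild type replicate 1 or 2 and to 1 without any 1 of the -77-/- libraries, which left Il18rap as the gene called in all 17 alternatives. The adjusted p of Il1r1, Il1r2 and Il1rl2, by limma, edgeR or DESeq2, ran up to 0.135, 0.148 and 0.0724 over the alternatives.

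The promoter of Il18rap is shown as the receptor window with the PU.1 motif, the letters GAGGAAGT. The 250 bases lie before the RefSeq start in GRCm38.p6, plus strand, chr1:40515112-40515361, 5′ to 3′, with the motif in capitals at -79 to -72.
Il18rap: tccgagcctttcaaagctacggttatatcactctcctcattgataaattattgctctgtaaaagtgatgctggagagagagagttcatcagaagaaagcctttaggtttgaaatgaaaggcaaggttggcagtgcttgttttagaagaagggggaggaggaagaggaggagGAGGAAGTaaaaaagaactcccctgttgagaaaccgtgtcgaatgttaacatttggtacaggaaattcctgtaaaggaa
The window has a GC content of 42.0%, and the bases before the motif are a run rich in G and A.

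Il17ra, the chain common to IL-17 receptors, read 1002, 799 and 996 in wild type and 3060.5, 3401 and 3179 in -77-/- libraries. The genotypes stood well apart, at 1.79 on the log2 scale (SE 0.13, limma adjusted p = 9.2e-08). The partner chains were near the floor. Il17rb, the partner for IL-25, had means of 12.6 and 21.3 and did not pass, and Il17rc, the partner for IL-17A, had 12 reads in wild type replicate 1 and none in the other 5 libraries. Il17rd and Il17re reached 11.2 and 5.08 in their highest library and were not tested.

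**Figure D2:**
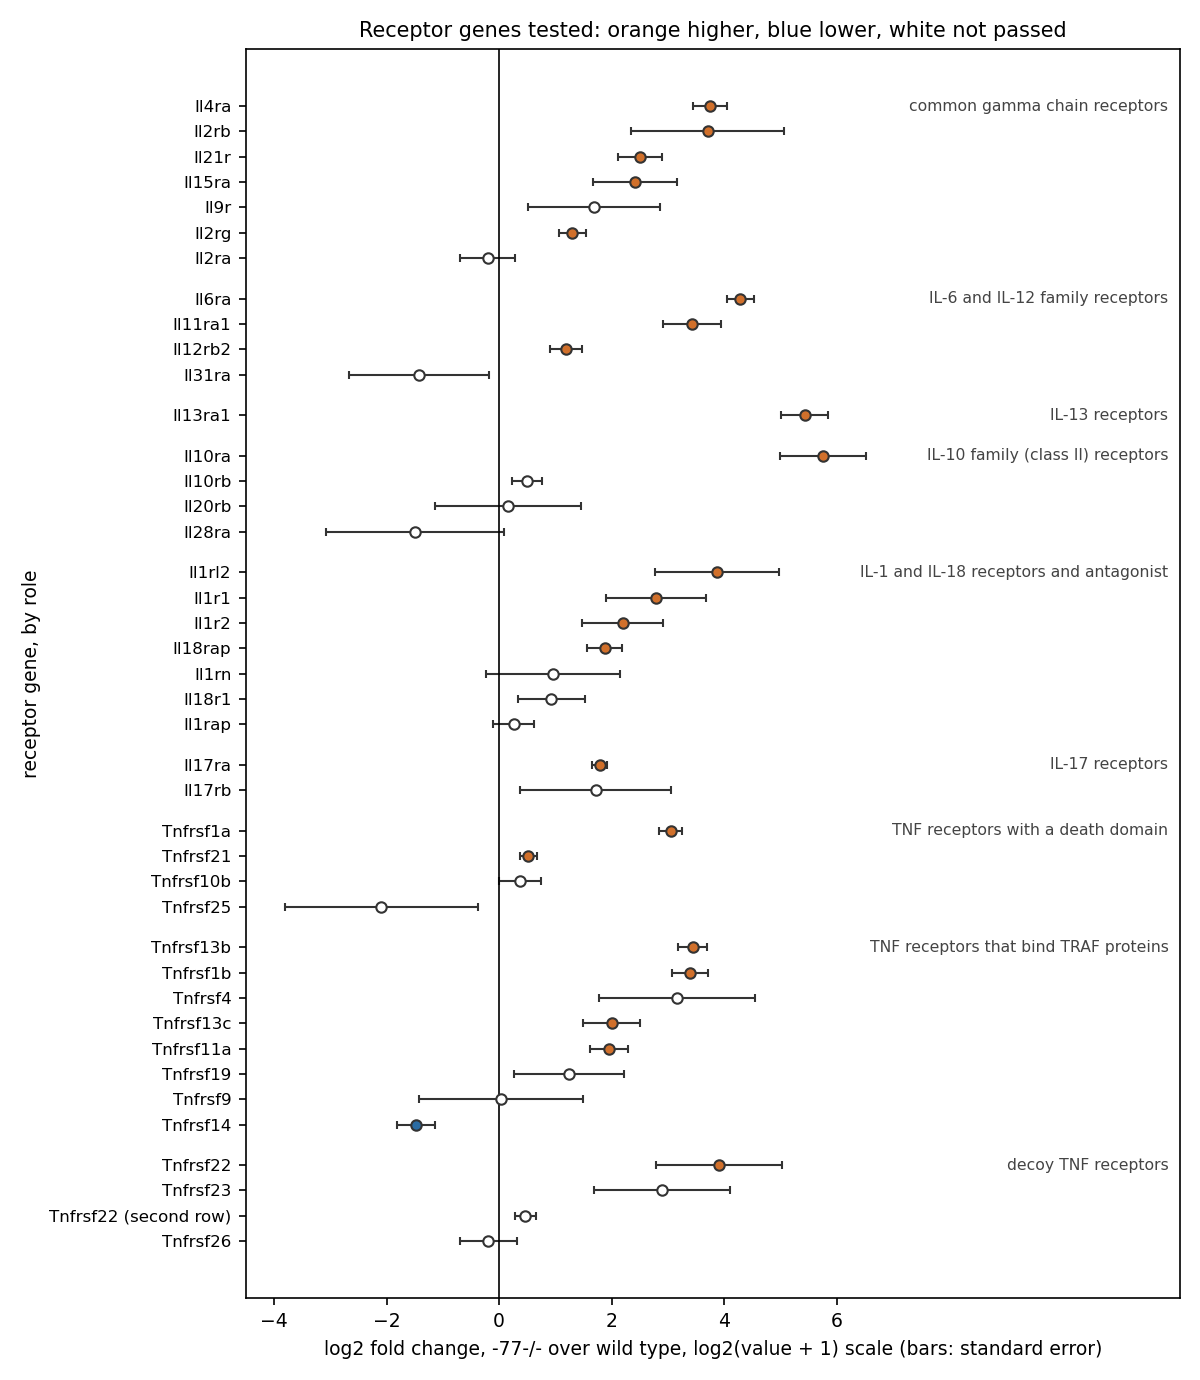
Log2 fold change, -77-/- over wild type, of the 41 receptor genes tested, with bars for the standard error and grouped by role. Filled orange points mark the 22 genes that rose, the blue point is Tnfrsf14, and white points did not pass; Il10ra and Il13ra1 lie farthest right, at 5.76 and 5.43.

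Both TNF receptors rose, each without overlap. Tnfrsf1a, the death domain receptor TNFR1, read 206, 143 and 142 in wild type and 1362.5, 1291 and 1389 in -77-/- libraries (log2 fold change 3.05, SE 0.21, limma adjusted p = 5.0e-08). Tnfrsf1b, or TNFR2, which has no death domain and binds TRAF proteins, rose from 46.9, 70.8 and 101 to 604, 868 and 786 (3.40, SE 0.32, limma adjusted p = 1.1e-06). Of the other death domain receptors, Tnfrsf21 (DR6) rose by 0.52 on the log2 scale, from 869 ± 99.5 to 1244 ± 66.2. Tnfrsf10b, the mouse receptor for the death ligand TRAIL, read 206, 107 and 178 in wild type and 149.5, 297.5 and 191 in -77-/- libraries and did not pass (0.37, SE 0.37, limma adjusted p = 0.471). Tnfrsf25 (DR3) had means of 18.1 and 2.71, with 1 library at 0 in wild type and 2 in -77-/-, and did not pass. In all, 2 of the 4 death domain receptors rose.

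The promoters of Tnfrsf1b and Tnfrsf14 are shown side by side because 1 gene rose and the other is the receptor gene that fell. Each is the 250 bases before the RefSeq start in GRCm38.p6, 5′ to 3′, on the minus strand of chromosome 4, at chr4:145246871-145247120 for Tnfrsf1b and chr4:154928078-154928327 for Tnfrsf14. Capitals mark a STAT motif, TTCCNGGAA, at -181 to -173 of Tnfrsf1b.
Tnfrsf1b: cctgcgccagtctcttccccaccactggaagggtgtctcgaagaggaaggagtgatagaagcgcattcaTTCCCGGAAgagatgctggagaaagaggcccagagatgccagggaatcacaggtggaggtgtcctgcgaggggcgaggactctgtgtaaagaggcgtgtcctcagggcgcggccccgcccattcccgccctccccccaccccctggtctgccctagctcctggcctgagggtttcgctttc
Tnfrsf14: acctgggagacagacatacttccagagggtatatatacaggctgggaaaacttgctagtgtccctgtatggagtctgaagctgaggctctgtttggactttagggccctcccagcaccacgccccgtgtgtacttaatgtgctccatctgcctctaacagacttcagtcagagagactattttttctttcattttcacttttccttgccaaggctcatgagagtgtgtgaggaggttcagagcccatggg
The Tnfrsf14 window held none of the 3 motifs searched, which says only that these letters are not in it. The GC content was 62.8% for Tnfrsf1b and 49.2% for Tnfrsf14.

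Among receptors that bind TRAF proteins, 4 of 8 tested rose and 1 fell, with a median log2 fold change of 1.98. Tnfrsf13b (TACI), a receptor for the B cell factors BAFF and APRIL, rose from 159, 161 and 320.2 to 2317, 2259 and 2007 (log2 fold change 3.44, SE 0.25, limma adjusted p = 1.1e-07). Tnfrsf13c, the BAFF receptor, rose from 44.1, 33.9 and 29.6 to 206, 128 and 115 (2.0, SE 0.51, limma adjusted p = 0.00716). Tnfrsf11a (RANK), the receptor that starts osteoclast formation, rose from 109, 65.9 and 141 to 331.5, 471.5 and 391 (1.96, SE 0.34, limma adjusted p = 3.8e-04). No wild type library reached the lowest -77-/- library in any of the 3. Of 8 B lineage markers 5 rose, against 16.9% higher among all genes tested. Their sums were 728 to 911 in wild type and 3293, 1778 and 1935.5 in -77-/- libraries. Replicate 1 was thus highest, as it was for Tnfrsf13c and, by a small margin (2317 against 2259 in replicate 2), for Tnfrsf13b. The lowest -77-/- sum was in replicate 2, whereas both receptor genes were lowest in replicate 3. In wild type the sum was lowest in replicate 3 (728), where Tnfrsf13c was lowest (29.6) and Tnfrsf13b highest (320.2). Without -77-/- replicate 1, 1 B lineage marker was called. Tnfrsf13c and Tnfrsf13b were called there too (Tnfrsf13c at a limma adjusted p of 0.0444). The part of B lineage cells in the receptor results was not tested. Tnfrsf14 (HVEM), a receptor for LIGHT and partner of the inhibitory receptor BTLA, read 285, 300.3 and 215 in wild type and 83.4, 113 and 88.8 in -77-/- libraries. It fell by 1.48 on the log2 scale (SE 0.34, limma adjusted p = 0.00326), without overlap and in all 17 alternatives. Tnfrsf4 (OX40) rested on few reads, at 4.69, 0 and 0 against 19.3, 12.6 and 13.7, and did not pass (limma adjusted p = 0.0976). Tnfrsf19 (TROY) had means of 13.8 and 36.1 and Tnfrsf9 (4-1BB) of 6.12 and 10.4, and neither passed. Tnfrsf8, Tnfrsf12a and Tnfrsf18 were too low to test, at 9.39, 11.1 and 7.68 in their highest library.

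Of the 4 rows in the decoy group, 3 are the similar neighbouring genes Tnfrsf22, Tnfrsf23 and Tnfrsf26, between which reads may be split, so each level is uncertain. Tnfrsf22 (ENSMUSG00000010751), a decoy for TRAIL, rose from 20.6, 6.99 and 0 to 68.1, 88.5 and 93.9 (log2 fold change 3.91, SE 1.12, limma adjusted p = 0.0141). The call ended without -77-/- replicate 2 (limma adjusted p 0.0675) or 3 (0.0729). The second row named Tnfrsf22 (ENSMUSG00000090852), whose identifier was not found in the GRCm38 annotation used, read 840, 726 and 828.5 in wild type and 900, 1398 and 1059.5 in -77-/- libraries. It did not pass (0.47, SE 0.18, limma adjusted p = 0.0572), although the libraries did not overlap. Tnfrsf23, also a TRAIL decoy, had means of 8.24 and 45.9, and Tnfrsf26 had 83.4 and 72.7, both with overlap. Neither passed.

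The order of the -77-/- libraries differed from gene to gene. Among the 22 genes that rose, replicate 1 was highest in 7 and lowest in 11, replicate 2 highest in 7 and lowest in 2, and replicate 3 highest in 8 and lowest in 9. No single library was thus the highest for most of them.

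Because many receptors need a second chain, the ratio of each chain to its partner was taken within each library, as log2(value + 1) of the chain minus that of the partner. The 9 pairs were chosen after their values had been seen, and gene length cancels in the change of a ratio but not in its level. Il4ra over Il2rg moved from -1.03, -1.71 and -1.69 in wild type to 0.90, 1.11 and 0.91 in -77-/- libraries, a difference of 2.45 log2 units. Il13ra1 over Il4ra moved from -2.08, -2.23 and -2.13 to -0.26, -0.54 and -0.60, a difference of 1.68. In these libraries the -77-/- to wild type difference was thus larger for Il13ra1 than for Il4ra, and larger for Il4ra than for Il2rg. Il10ra over Il10rb differed most, by 5.26, with wild type libraries at -6.52 to -4.08 and -77-/- libraries at -0.12 to 0.74. The receptors Il1r1 and Il1rl2 gained on their shared chain Il1rap by 2.52 and 3.61 (1.99 for Il1rl2 without wild type replicate 2, which had no Il1rl2 read), and Il21r on Il2rg by 1.21. Il6ra gained 0.66 on Il6st, the gp130 chain, which itself rose. Each of these 7 differences was without overlap and had the smallest p that an exact two-sided permutation test of 3 against 3 can give, 0.10, or 0.129 adjusted over the 9 pairs. The gap was narrow for Il21r over Il2rg, with wild type replicate 3 at -1.36 and -77-/- replicate 3 at -1.34. It was also narrow for Il6ra over Il6st, with wild type replicate 1 at 0.45 and -77-/- replicate 2 at 0.56. Il11ra1 over Il6st differed by -0.20 (exact permutation p = 0.70) and Il18rap over Il18r1 by 0.95 (0.40), both with overlap.

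**Figure D3:**
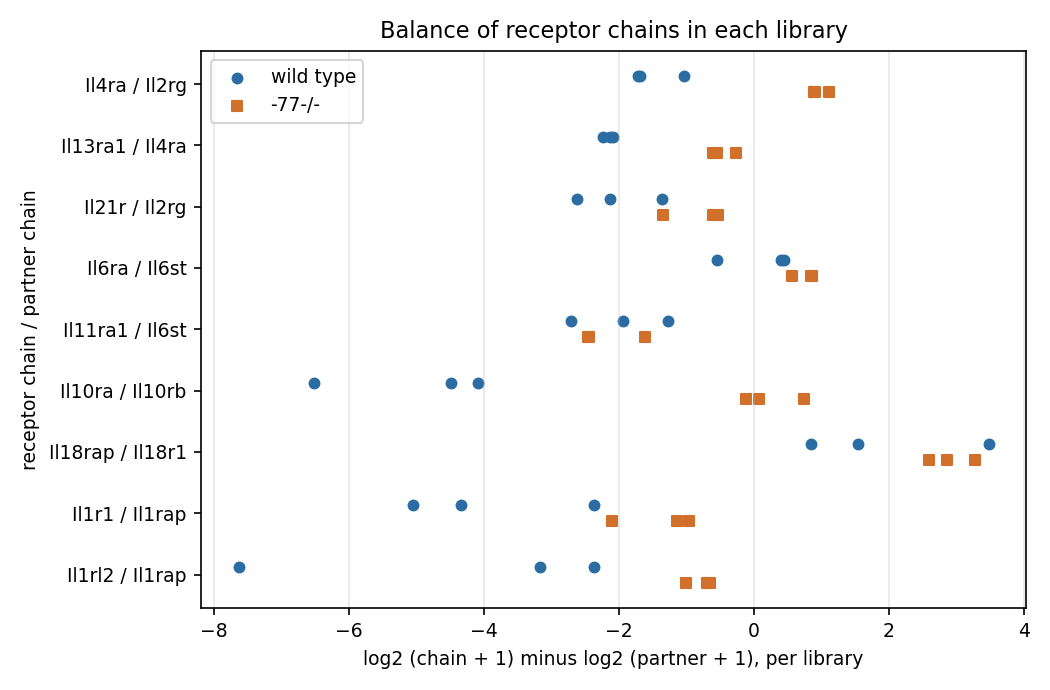
Log2 ratio of a receptor chain to its partner chain in each library, with blue circles for wild type and orange squares for -77-/-. The 2 genotypes do not overlap in 7 pairs, and lie farthest apart in Il10ra over Il10rb. In Il21r over Il2rg and Il6ra over Il6st they nearly touch. They overlap in Il11ra1 over Il6st and Il18rap over Il18r1.

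Some of the receptor genes lie side by side in the RefSeq gene order of GRCm38. Il4ra and Il21r are neighbours on chromosome 7, and both rose. Il2ra and Il15ra are neighbours on chromosome 2, where Il15ra rose and Il2ra did not pass. On chromosome 1 the order is Il1r2, Il1r1, Il1rl2, Il1rl1, Il18r1 and Il18rap, of which the first 3 and the last rose. Il1rl1, which the rule left out, fell, and Il18r1 did not pass. Tnfrsf26, Tnfrsf22 and Tnfrsf23 lie together on chromosome 7, and of these Tnfrsf22 rose. Tnfrsf1b and Tnfrsf8 are neighbours on chromosome 4, where Tnfrsf1b rose and Tnfrsf8 was too low to test. Also on chromosome 4, Tnfrsf4 did not pass and its neighbour Tnfrsf18 was too low to test. The neighbours Il17re and Il17rc on chromosome 6 were both too low to test.

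Promoter windows were found for 41 of the 49 symbols, 51 windows in all, and 3 motifs were searched on both strands in the 250 bases before each start. The PU.1 motif GAGGAAGT, also bound by other ETS factors, was in 1 window (1.96%), against 2.44% of all 32851 windows. The GATA motif AGATAA was in 4 windows (7.84%), against 9.99%. The STAT motif TTCCNGGAA was in 2 windows (3.92%), against 0.913%. With 51 windows these are counts of 1, 4 and 2, and nothing is drawn from them about the factors.

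The other genes of these pathways were taken from 6 lists, of which 94 genes had a row and 80 were tested. Of these 39 were higher, 4 lower and 37 did not pass, with a median log2 fold change of 1.05, against 16.9% higher, 15.2% lower and a median of 0.10 over all genes tested. Of the 80, 13 reached the filter only in -77-/- and none only in wild type, which favours higher calls. Ligands were mostly low. Of 39 interleukin and related ligands listed, 18 had a row and 9 were tested, of which 3 were higher: Il1b (4.95 ± 7.01 to 58.4 ± 31.6, log2 fold change 3.96), Il16 (219 ± 106.5 to 952 ± 111, 2.26) and Ebi3, a subunit of IL-27 and IL-35 (42.03 ± 14.9 to 182 ± 53.0, 2.11). The Il1b call ended with edgeR (adjusted p 0.0651) and without -77-/- replicate 1 (limma adjusted p 0.093) or 2 (0.0861). Of 17 TNF family ligands 9 had a row, 7 were tested and 4 were higher: Tnf itself (12.4 ± 12.2 to 126.5 ± 44.1, 4.10), Tnfsf9, the ligand of 4-1BB (3.88), Ltb, or lymphotoxin beta (3.54), and Tnfsf10, or TRAIL (3.0). That count of 4 was 0 without -77-/- replicate 2, and 1 without -77-/- replicate 3 or with a pseudocount of 0.1. It was 2 without -77-/- replicate 1, without wild type replicate 3, with edgeR or with limma-voom. A filter at a mean of 50 over all libraries left only 2 of these ligands to test, and both were called. Among 5 tested relatives with other symbols, Cd27, a costimulatory receptor of lymphocytes and early progenitors (9.76 ± 15.9 to 161 ± 69.7, 5.26), and Ltbr, the lymphotoxin beta receptor (82.2 ± 57.3 to 435 ± 43.6, 2.62), were higher. Cd27 missed the threshold with edgeR (adjusted p 0.0577), where the count of this list was 1.

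Shared chains and JAK-STAT genes were higher in 12 and lower in 2 of 22 tested. Il6st rose from 100.2 ± 73.2 to 1081 ± 184 (log2 fold change 3.63), and Lifr, which pairs with it in the LIF receptor, from 65.4 ± 31.7 to 273 ± 36.4 (2.18). Among the SOCS genes, which encode feedback inhibitors of cytokine signalling, 3 were higher from low levels: Socs3 (4.25), Socs1 (3.78) and Socs5 (2.55). With edgeR the adjusted p was 0.0935 for Socs1 and 0.137 for Socs5, and Socs3 missed the threshold without -77-/- replicate 2 (limma adjusted p = 0.109) or 3 (0.0747). A further 4 genes were singled out after their values were seen. Stat3, which acts behind gp130, and Stat6, which acts behind Il4ra, rose by 0.81 and 0.77. Stat5a fell from 1173.5 ± 93.7 to 464 ± 103 (-1.36) and Stat5b from 2393.5 ± 107 to 1651 ± 74.3 (-0.54). Both encode the STATs behind erythropoietin and the common gamma chain, and they were the 2 genes of the list that fell. Jak1, Jak2, Socs4, Socs6, Socs7 and Ptpn2, all with a mean over 500, did not pass and stood at -0.17, -0.25, -0.26, 0.35, -0.07 and -0.33. The other JAK genes of the list, Jak3 and Tyk2, were higher, by 1.55 and 0.87, and are named beyond the rule to complete the JAK genes.

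Adaptors of the IL-1 and IL-17 receptors were higher in 7 and lower in 1 of 14. Those higher included Sigirr, an inhibitory member of the IL-1 receptor family (log2 fold change 2.56), the kinases Irak4 (1.37) and Irak2 (1.2), their inhibitory relative Irak3 (1.13) and the adaptor Myd88 (516 ± 87.1 to 914 ± 109, 0.83). Tab3, a subunit of the TAK1 kinase complex, fell from 1324 ± 102 to 603 ± 91.9 (-1.14). Tollip, Traf6 and Map3k7 did not pass, at 0.14, -0.18 and 0.03. The count of 7 became 4 without wild type replicate 2 or without -77-/- replicate 2 or 3. Sigirr lost its call in each of these, without -77-/- replicate 1 (limma adjusted p 0.101) and with edgeR (adjusted p 0.0617). Irak3 also lost its call in each of these and without wild type replicate 1, at a limma adjusted p of up to 0.132. Of 23 TNF receptor adaptors and cell death genes 11 were higher and 1 lower. Map3k14 (NIK), the kinase of the alternative NF-kappaB pathway, rose from 5.65 ± 8.93 to 146 ± 16.3 (5.50). Mlkl, the pore-forming protein of necroptosis, rose from 48.2 ± 30.5 to 485 ± 64.2 (3.52), and Map3k5 (ASK1), Cflar (c-FLIP), a brake on caspase 8, and Tnip1, an NF-kappaB inhibitor, by 2.21, 1.73 and 1.37. Traf4 fell from 299 ± 35.1 to 78.9 ± 45.0 (-2.13). Ripk3, Traf3, Birc2 and Rbck1 did not pass, at 0.30, -0.03, -0.24 and -0.01.

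**Figure D4:**
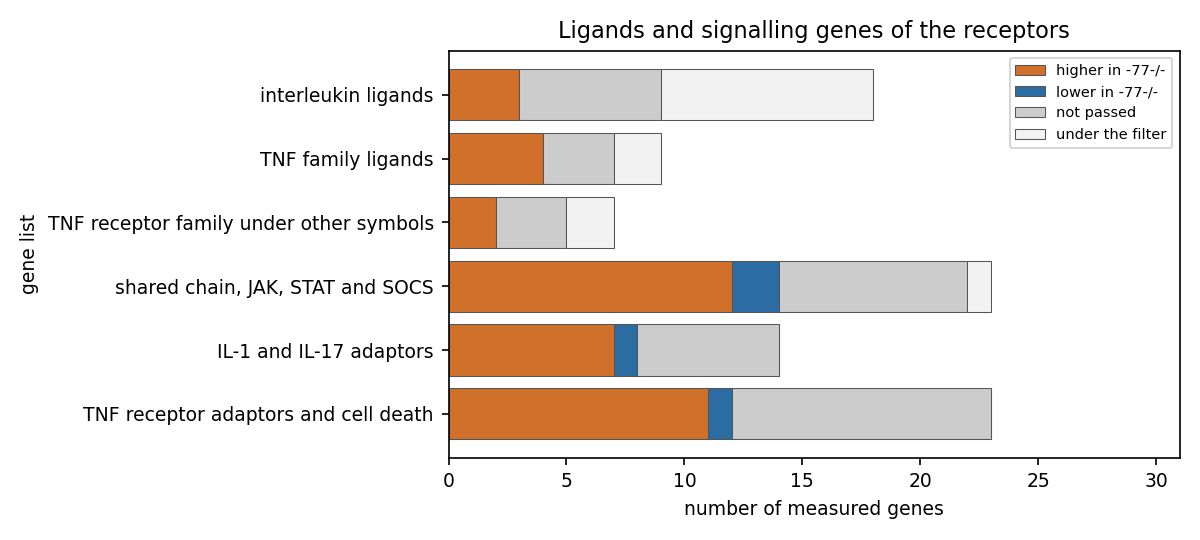
Number of measured genes in each of the 6 lists of ligands and signalling genes, split by outcome: orange higher in -77-/-, blue lower, grey not passed and pale grey too low to test. The JAK and STAT list has 12 higher and 2 lower genes of 23 measured, and 9 of the 18 interleukin ligands were too low to test.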

How the data were processed

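The submitters' processing notes name the mm9 build and the tools RSEM 1.2.31, DESeq2, STAR 2.5 and Bowtie. Which aligner did what, the annotation and the strand setting are not given in the sources used here, so genes that overlap or have antisense partners cannot be told apart. Each library started from 10 ng of RNA and a NuGEN amplification kit for single cells, per the labels' protocols. The authors' deposited table held, per library, a normalized signal: to within 0.01 of a read, all values of a library were whole multiples of 1 unit, so they are gene counts divided by a size factor (0.878 to 1.171). The authors deposited log2 fold changes and adjusted p-values too, which served only as a comparison. In 8 of 19444 rows the cells were moved sideways, and these were left out.

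Tests used limma 3.58.1 in R 4.3.3 on log2(value + 1), with the trend and robust options of its empirical Bayes step. Alternatives were edgeR 4.0.16 and DESeq2 1.42.0 on the recovered reads, limma-voom, TMM and upper quartile scaling, other pseudocounts and filters, no robust option, and each library left out in turn. The script was tested on simulated data.

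Library values and full statistics are given for receptor genes that pass with an absolute log2 fold change of at least 1, and values for those that do not pass with a mean of at least 100. In each pathway list the up to 6 passing genes with the largest change are named, and those not passing with a mean of at least 500. A gene that this rule names is not reported here. The receptor genes, role groups, pathway and marker lists were chosen with earlier results of these data known, so their directions are not independent evidence.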

Additional observations from a re-analysis of the deposited data

How the results depend on the processing

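Over 17 alternatives the count of receptor genes that rose ran from 19 to 22 with other settings and from 16 to 21 with a library left out, and the count that fell was 1 in each. The 19 came with a mean of 50 over all libraries, where 26 receptor genes were tested. Pathway genes that rose ran from 32 to 39 with other settings and from 27 to 38 with a library left out, against 39, and those that fell were 4 in each. Over all genes 4735 to 5280 differed with other settings and 3915 to 5108 with a library left out, against 5091. Of the 22 receptor genes that rose, 16 kept their call in every alternative, and the calls of Il1rl2, Il15ra, Tnfrsf22, Il1r2, Il1r1 and Il2rb ended in some. No direction of a called result was reversed. Of the genes that did not pass, the second Tnfrsf22 row was called with a mean of 50 over all libraries (limma adjusted p = 0.0454) and without -77-/- replicate 1 (0.0252), and Tnfrsf23 without wild type replicate 1 (0.032). The decoy group's count was 2 without wild type replicate 1 or -77-/- replicate 1, and 0 without -77-/- replicate 2 or 3. The gamma chain group had 3 calls with a mean of 50 over all libraries, where only 4 of its genes were tested. Il15ra and Il2rb were then under the filter. The change of Il13ra1 over Il4ra was 1.46 with a pseudocount of 5. A wild type library without reads sets the size of the lowest genes: the log2 fold change of Il1rl2 was 2.48 without wild type replicate 2. B lineage markers were called in 3 cases with limma-voom. Apart from genes that a filter removed, the cause of these changes was not tested. No paired analysis was possible because the labels give no replicate numbers. Genes with under about 10 reads per library are limited by depth, and 3 libraries per genotype limit exact tests to a p of 0.1.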

Other observations

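Il1rl1, the receptor for IL-33, lies between Il1rl2 and Il18r1 on chromosome 1. It read 335, 302 and 316 in wild type and 0, 23.3 and 19.6 in -77-/- libraries, and fell by 5.32 on the log2 scale (SE 1.08, limma adjusted p = 0.00318). It fell by 3.83 without -77-/- replicate 1, the library at 0. With a pseudocount of 0.1 its adjusted p was 0.0615. The genes on one side, Il1r2, Il1r1 and Il1rl2, rose by 2.20, 2.79 and 3.87, and Il18rap on the far side by 1.88. Il18r1, directly next to it on that side, did not pass (limma adjusted p = 0.248). This order was looked up after the values were seen.

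A further 4 lists of other cell types completed the check of the gate. Over all genes tested, 16.9% were higher and 15.2% lower in -77-/-. Mast cell, basophil and eosinophil markers fell in 3 of 7 cases, with sums of 824 to 2202 in wild type and 155 to 214 in -77-/- libraries. The 3 were Prg2 (means 962 and 13.6), Epx (249 and 6.73) and Ear1 (143 and 0.648), which made up most of the wild type sums. Cpa3, Mcpt8, Ms4a2 and Siglec5 did not pass, so the list as a whole did not fall. Megakaryocyte markers fell in 2 of 5 tested, or in none without wild type replicate 2 or 3 and in 1 without any 1 of the -77-/- libraries. Endothelial and stromal markers rose in 1 of 4, or in none without -77-/- replicate 2. Hepatoblast markers passed in none of 3 tested, with -77-/- replicate 3 summing to 884 and the other 5 libraries to 48.9 to 207.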
